A study of Mus musculus with 6 samples.

Results

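The genes described here encode the matrix metalloproteinases (MMPs), the ADAMTS proteases, the ADAMTS-like proteins and the tissue inhibitors of metalloproteinases (TIMPs). They were chosen by symbol alone, which gave 51 of the 55401 genes of the count matrix: 23 *Mmp* genes, 19 *Adamts* genes, 5 *Adamtsl* genes and 4 *Timp* genes. The cells were C2C12, a line of mouse myoblasts that form myotubes once serum is reduced, here to 2% horse serum, and RNA was sequenced at 2 d post differentiation. The control group had 3 libraries of cells labelled wild type, which had received a Cas9 and ZsGreen1 plasmid with a guide that matches no mouse sequence. The *Phf2* KO group had 3 libraries of cells that had received 4 pooled Cas9 plasmids with guides against *Phf2*, which encodes a histone lysine demethylase. Both groups were sorted for ZsGreen1 and expanded as pools without single-cell cloning, so the KO pool can hold mixed alleles. In the study's description the replicates were wells of a single experiment. The p-values thus measure the spread between wells, and a difference between the sorted pools cannot be told apart from an effect of *Phf2*.

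MMPs are zinc-dependent endopeptidases that are made as inactive precursors and cleave collagens, gelatin, proteoglycans and other matrix proteins. Some are secreted, and the membrane-type MMPs stay anchored at the cell surface, where *Mmp14* activates the *Mmp2* product with the help of TIMP2. ADAMTS proteases are secreted, bind the matrix through thrombospondin repeats and trim procollagens, aggrecan and versican, or associate with fibrillin microfibrils. ADAMTS-like proteins share these repeats but lack the protease domain. TIMPs block the active site of MMPs, and TIMP3 also inhibits ADAMTS proteases and stays bound to the matrix. In muscle, these enzymes are known from matrix remodeling during myoblast migration, fusion and regeneration.

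The total of estimated counts ran from 52526109 to 67502788 per library. *Phf2* itself stood at 102, 95.5 and 105 CPM (counts scaled to library size by TMM) in control replicates 1, 2 and 3 and at 41.1, 37.6 and 38.6 CPM in the *Phf2* KO replicates, which is a log2 fold change of -1.37 ± 0.06 (SE; edgeR quasi-likelihood fit, adjusted p = 8.32e-09). All 10 skeletal muscle markers examined, such as *Myog*, *Des* and *Ckm*, passed the filter on low counts in these libraries. Of these, 8 were lower in *Phf2* KO cells past the threshold (adjusted p under 0.05), and their summed level was 11040.3 to 12956 TPM (a level per transcript length) in control and 8576 to 9749 TPM in *Phf2* KO libraries. None of the 5 markers of dividing or undifferentiated myoblasts passed the threshold, with sums of 86.8 to 90.2 and 86.2 to 96.4 TPM. Sums for 6 leukocyte markers were at most 4.17 TPM in any library, for 4 endothelial markers 0.356 TPM, for 4 bone and cartilage markers 1.27 TPM and for 3 epithelial markers 0.0962 TPM. Of 4 adipocyte markers, *Cebpa* rose (32.9 to 51.8 CPM, adjusted p = 4.64e-04), while *Plin1* and *Lep* had no count in any library and *Adipoq* at most 8. Their summed level was 24.0 to 30.4 TPM in control and 40.8 to 44.9 TPM in *Phf2* KO libraries. The muscle list, and *Cebpa* alone of the adipocyte list, moved with the groups in which the genes below were compared. Their part in those results was not tested. In bulk RNA, fewer cells of a type and less RNA per cell cannot be told apart.

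Of the 51 genes, 32 passed the filter on low counts and 19 did not. Passing needs enough counts in 3 libraries, so the 32 are the expressed part of the families. With edgeR's quasi-likelihood test, 12 of the 32 (37.5%) had an adjusted p under 0.05, where 6.48% of all 17310 genes tested did. In *Phf2* KO cells, 6 rose (*Timp3*, *Mmp11*, *Mmp28*, *Adamts10*, *Adamts12* and *Adamtsl1*), against 3.22% of all genes. Another 6 fell (*Mmp15*, *Adamts4*, *Adamts7*, *Adamts14*, *Adamtsl2* and *Adamtsl5*), against 3.26% of all genes. The change was at least 1.5-fold for 3 of the 12, *Adamtsl1*, *Adamtsl2* and *Mmp15*, and for 1.32% of all genes. Highly expressed genes pass more often: of those whose mean was 5 CPM or more, 12 of 26 family members (46.2%) passed and 9.39% of all such genes did. No test was made over the families as a list. The median log2 fold change of the 32 genes was 0.05, with a range from -1.34 to 1.11, against -0.00 over all genes tested. Genes past the threshold went both ways within each of the MMP, ADAMTS and ADAMTSL families. The libraries of the groups did not overlap for 16 of the 32 genes, where 25.1% of all genes tested showed this.

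With each library left out in turn, 8 of the 12 genes passed in all 6 fits, and the number of genes past the threshold was 9 to 14. Fits of log2(TPM + 1) and log2(TPM + 0.1), which come from per-library tables and not from the counts, each called 3 of the 12 (*Mmp15*, *Mmp11* and *Timp3*), as against 158 and 178 of all genes.

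**Figure D1:**
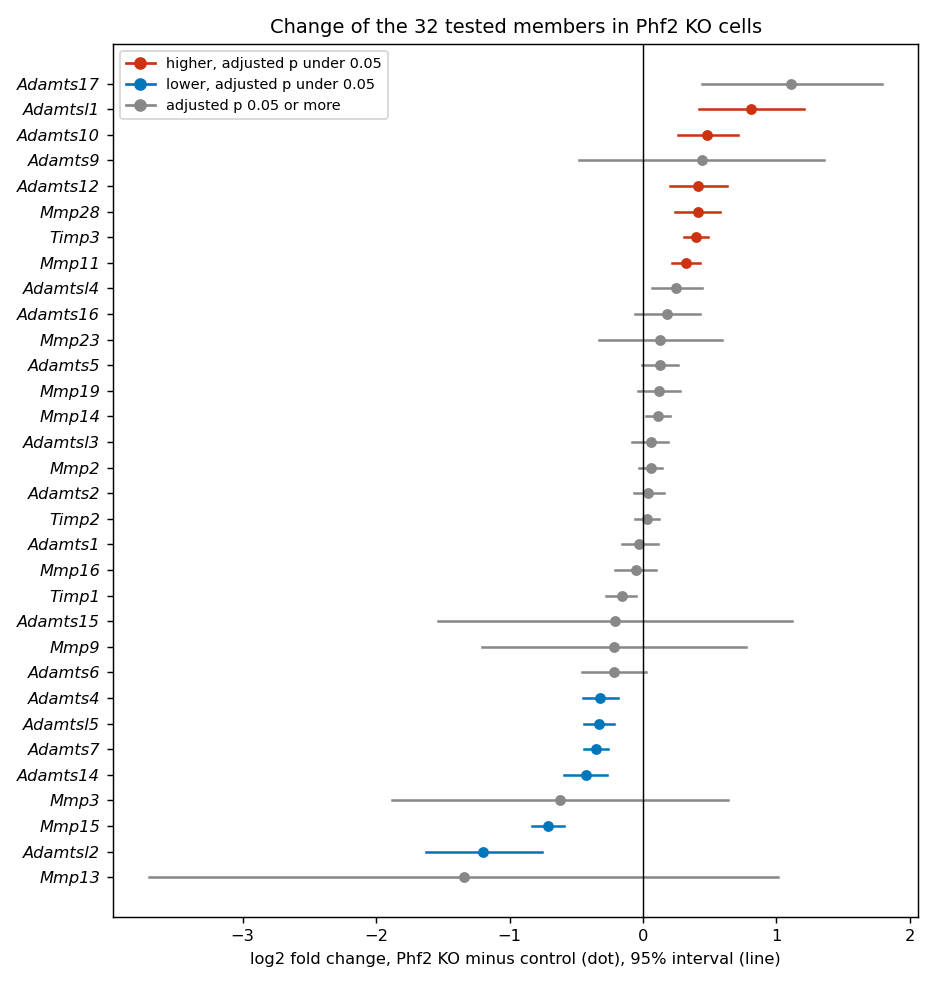
Log2 fold change (x axis, *Phf2* KO minus control, dot) with its 95% interval (line) for the 32 tested genes, from the quasi-likelihood fit of 3 control and 3 *Phf2* KO libraries. The 6 genes in red rose and the 6 in blue fell, while *Adamts17*, at the top, and *Mmp13*, at the bottom, had the largest estimate in each direction and did not pass the threshold.

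The levels per transcript length spanned a wide range. Of the 32 genes, 6 had a mean above 100 TPM: *Timp2*, *Mmp14*, *Mmp2*, *Timp3*, *Timp1* and *Mmp11*. *Mmp2*, *Mmp14* and *Timp2*, which encode the parts of the cell-surface system that activates the gelatinase MMP2, together held 64.6% to 65.8% of the summed TPM of all 51 genes in every library. The *Mmp* genes summed to 1437, 1401 and 1392 TPM in the control replicates and to 1568, 1597 and 1596 TPM in the *Phf2* KO replicates. All KO sums lay above all control sums. *Mmp14*, the most abundant *Mmp* gene, had a mean of 706 TPM in control and 832 TPM in KO libraries. Its counts did not pass the threshold (log2 fold change 0.11, quasi-likelihood adjusted p = 0.158). The *Timp* sums of 1113, 1133 and 1222 TPM in control and 1218, 1234 and 1232 TPM in KO libraries overlapped. The ratio of the *Timp* sum to the *Mmp* sum was 0.774, 0.808 and 0.878 in control and 0.777, 0.772 and 0.772 in KO libraries, so control replicate 1 lay within the KO range. *Adamts* genes summed to 415 to 439 TPM over all 6 libraries, without a separation of the groups.

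**Figure D2:**
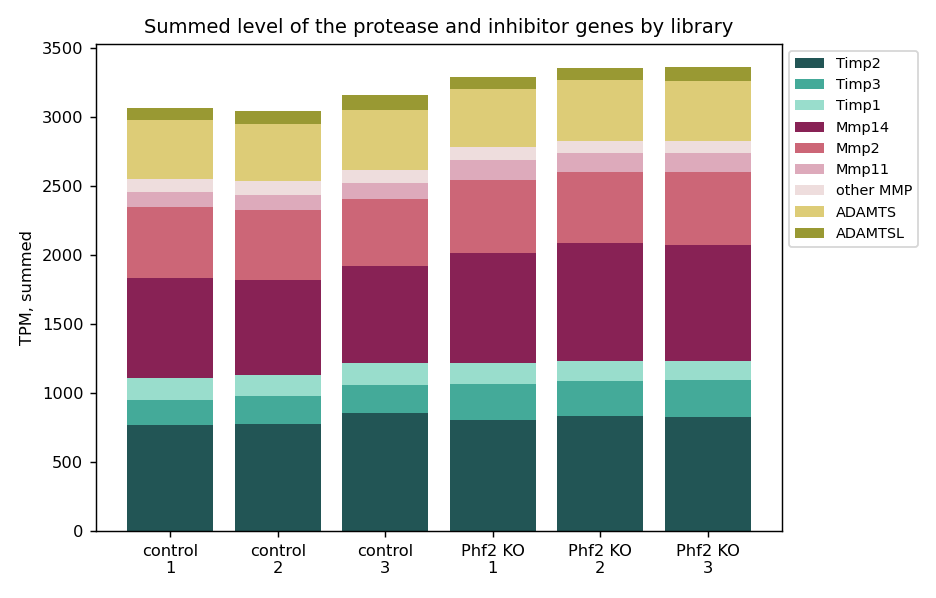
Summed TPM (y axis) of the genes in each of the 6 libraries (x axis), with the 6 most abundant genes drawn singly. *Timp2*, *Mmp14* and *Mmp2* made up about the same share of every bar, between 64.6% and 65.8%.

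**Figure D3:**
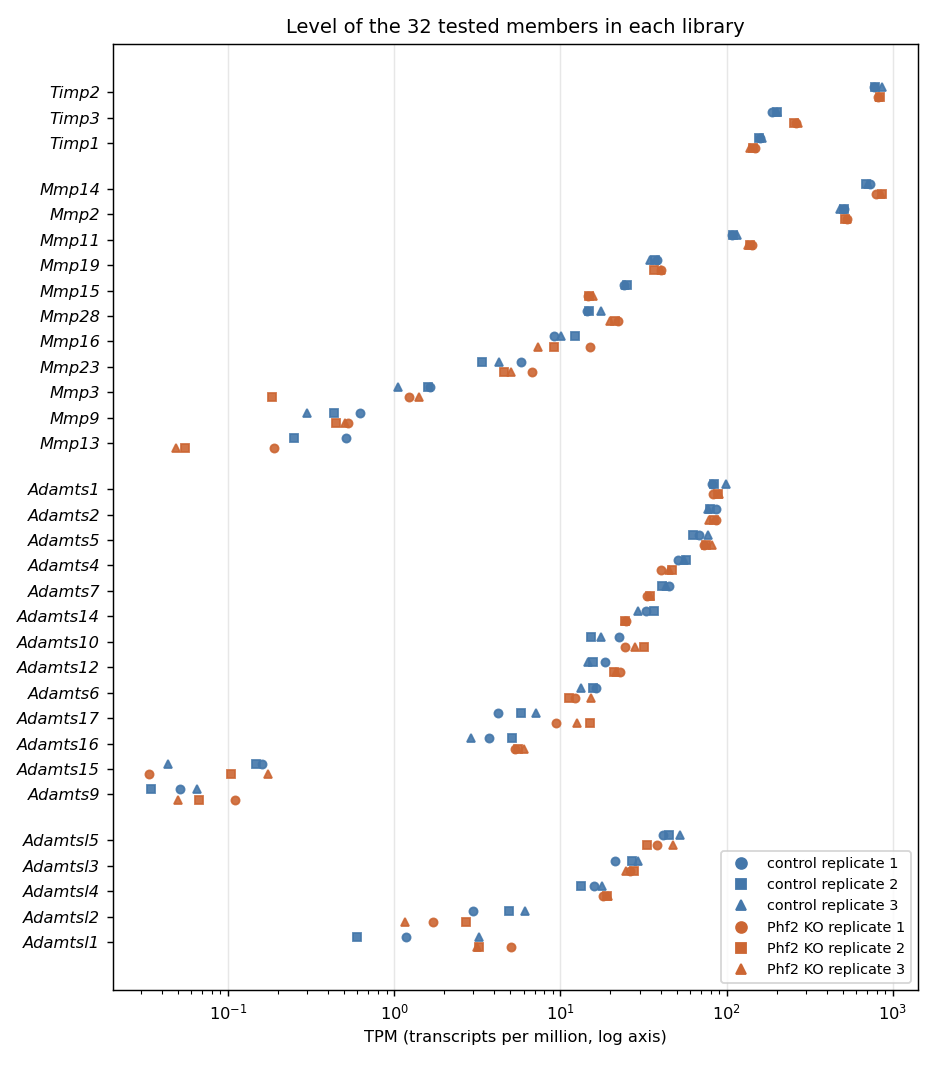
TPM (x axis, log scale) of the 32 tested genes in each library, by family and level; symbols give the replicate and colors the group, and a value of 0 is not drawn. *Timp3*, *Mmp11* and *Mmp15* show groups that stand apart, and *Timp2*, *Mmp19* and *Adamts1* do not.

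Promoter sequences of RefSeq (GRCm38.p6) were found for 36 of the 51 genes. The 250 bases before the RefSeq start are shown for the 2 lower and the 2 higher genes with the smallest p among those with a single promoter entry, so that the letters near the starts of genes that moved in opposite directions can be set side by side. *Mmp15* (chr8:95352046-95352295, plus strand) and *Adamtsl5* (chr10:80348449-80348698, minus strand) fell, and *Timp3* (chr10:86300162-86300411, plus strand) and *Mmp11* (chr10:75932503-75932752, minus strand) rose. Capitals mark the GC box letters GGGCGG and the myogenic E-box letters CAGCTG, each searched on both strands. The first transcribed bases of the *Adamtsl5* entry were in no GENCODE M21 transcript of that gene, and those of the other 3 entries were.
*Mmp15*: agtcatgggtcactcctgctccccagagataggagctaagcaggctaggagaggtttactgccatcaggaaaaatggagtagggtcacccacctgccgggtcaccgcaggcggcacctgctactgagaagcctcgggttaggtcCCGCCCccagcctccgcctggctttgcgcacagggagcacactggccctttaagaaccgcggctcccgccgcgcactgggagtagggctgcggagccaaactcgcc
*Adamtsl5*: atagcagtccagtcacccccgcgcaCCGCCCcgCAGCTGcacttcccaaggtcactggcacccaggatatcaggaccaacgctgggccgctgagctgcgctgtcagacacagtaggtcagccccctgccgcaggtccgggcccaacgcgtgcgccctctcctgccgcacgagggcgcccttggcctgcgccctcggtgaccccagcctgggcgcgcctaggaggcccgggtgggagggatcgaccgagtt
*Timp3*: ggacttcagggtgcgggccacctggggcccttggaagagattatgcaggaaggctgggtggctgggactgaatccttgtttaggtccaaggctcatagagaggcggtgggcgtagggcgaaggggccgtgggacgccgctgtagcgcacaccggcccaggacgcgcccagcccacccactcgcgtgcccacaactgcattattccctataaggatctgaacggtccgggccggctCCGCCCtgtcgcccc
*Mmp11*: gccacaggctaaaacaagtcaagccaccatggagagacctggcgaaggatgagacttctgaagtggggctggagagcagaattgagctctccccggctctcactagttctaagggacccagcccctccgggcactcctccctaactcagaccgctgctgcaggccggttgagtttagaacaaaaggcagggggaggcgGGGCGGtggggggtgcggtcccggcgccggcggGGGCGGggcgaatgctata
All 4 windows were rich in G and C, between 63.2% and 70.8%. A GC box stood in 22 of the 39 promoters of the families (56.4%) and in 35.7% of all 32851 promoters of the same window (250 bases before and 50 after the start). It was found for 7 of the 8 genes past the threshold that had a promoter entry and for 9 of the 12 tested genes not past it. CAGCTG stood in 9 of 39 (23.1%) against 16.3% of all promoters, and the TEAD letters CATTCC in 2 of 39 (5.13%) against 14.7%. These are matches of letters and not measured sites.

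Among the inhibitors, *Timp3* rose and *Timp2* did not pass the threshold. *Timp3* (ENSMUSG00000020044, mm10 chromosome 10, 86300372 to 86349506, plus strand) stood at 411, 440.2 and 438 CPM in control and at 579, 557 and 566 CPM in *Phf2* KO replicates. Every KO library lay above every control library. Group means were 429.8 ± 16.5 and 567 ± 11.3 CPM (SD, n = 3 each), a log2 fold change, KO minus control, of 0.40 ± 0.04 (SE; adjusted p = 6.97e-05). *Timp2* had 1320.4, 1342 and 1462 CPM in control and 1404, 1431 and 1376 CPM in KO replicates, with overlapping groups and a log2 fold change of 0.03 (95% interval -0.06 to 0.12, adjusted p = 0.775). The ratio of *Timp3* to *Timp2* in TPM was 0.244, 0.258 and 0.236 in control and 0.324, 0.306 and 0.323 in KO libraries, without overlap. *Timp1*, which encodes a secreted inhibitor, lay at 63.4, 62.8 and 64.8 CPM in control and 59.9, 57.3 and 53.3 CPM in KO replicates. All KO values lay below all control values, but the log2 fold change of -0.16 ± 0.06 (SE) did not pass the threshold (adjusted p = 0.102). *Timp4*, which is known as an inhibitor of heart and muscle, had at most 4 counts in any library.

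*Mmp15*, whose promoter window was shown before the inhibitors, had the smallest p of the 32 genes. It encodes a membrane-type MMP and lies on chromosome 8 from 95352268 to 95375080 (ENSMUSG00000031790, plus strand). Its level was 55.9, 59.0 and 57.1 CPM in control and 35.1, 35.4 and 34.6 CPM in *Phf2* KO replicates. The spread within each group was small beside the gap between them. The mean was 57.4 ± 1.55 CPM in control and 35.0 ± 0.363 CPM in KO cells (SD, n = 3 each), which is 1.64-fold lower, with a log2 fold change of -0.71 ± 0.05 (SE; adjusted p = 7.90e-06). No other tested gene of this class passed the threshold. *Mmp14*, the most abundant protease gene of the set, had 1096, 1154 and 1169 CPM in control and 1187, 1300.4 and 1203 CPM in KO replicates. All KO libraries were above all control libraries by a small margin, with a log2 fold change of 0.11 (95% interval 0.02 to 0.20, adjusted p = 0.158). Per length, *Mmp14* had 706 ± 18.4 TPM (SD, n = 3) in control and 832 ± 32.5 TPM (SD, n = 3) in KO cells. *Mmp16* had a log2 fold change of -0.05 (95% interval -0.21 to 0.10). *Mmp17*, *Mmp24* and *Mmp25* did not pass the filter on low counts.

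Of the secreted MMPs, *Mmp11* and *Mmp28* rose. *Mmp11* (ENSMUSG00000000901, chromosome 10, 75923222 to 75936496, minus strand) encodes stromelysin-3, which is activated inside the cell by furin. It stood at 105, 107 and 113 CPM in control and 139.7, 139 and 129 CPM in *Phf2* KO replicates. The groups did not overlap, and the mean rose from 109 ± 4.07 to 136 ± 5.97 CPM (SD, n = 3 each), a log2 fold change of 0.32 ± 0.05 (SE; adjusted p = 0.00103). *Mmp28* (ENSMUSG00000020682, chromosome 11, 83440768 to 83463071, minus strand), which encodes epilysin, had 20.2, 20.4 and 22.7 CPM in control and 29.7, 27.9 and 26.5 CPM in KO replicates. Its log2 fold change was 0.41 ± 0.08 (SE; adjusted p = 0.00703), again without overlap of the groups. An exon of *1700020L24Rik* on the opposite strand overlaps *Mmp28* by 466 bases, and that gene rose as well, from 2.54 ± 0.226 to 4.97 ± 0.613 CPM (SD, n = 3 each; adjusted p = 0.00522). The library kit marks strand, but the strand setting of the counting is not given in the sources used here, and the part of shared reads was not tested. Exons of *Timp3*, *Mmp11* and *Adamts7* also overlap a gene on the opposite strand (*Syn3*, *Chchd10* and *Tbc1d2b*), none of which passed the threshold or, for *Syn3*, the filter.

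*Mmp2*, the gelatinase that is abundant in these cells, did not pass the threshold. Its level was 726, 729 and 681 CPM in control and 764, 733 and 727 CPM in KO replicates, with a log2 fold change of 0.06 (95% interval -0.03 to 0.14, adjusted p = 0.494). Per length the groups of *Mmp2* did not overlap, at 482 to 509 TPM in control and 515 to 531 TPM in KO libraries. The other gelatinase gene, *Mmp9*, was rare, with 0.712 ± 0.325 CPM (SD, n = 3) in control and 0.607 ± 0.240 CPM (SD, n = 3) in KO cells. *Mmp19* and *Mmp23* had log2 fold changes of 0.12 and 0.13 and overlapping groups.

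**Figure D4:**
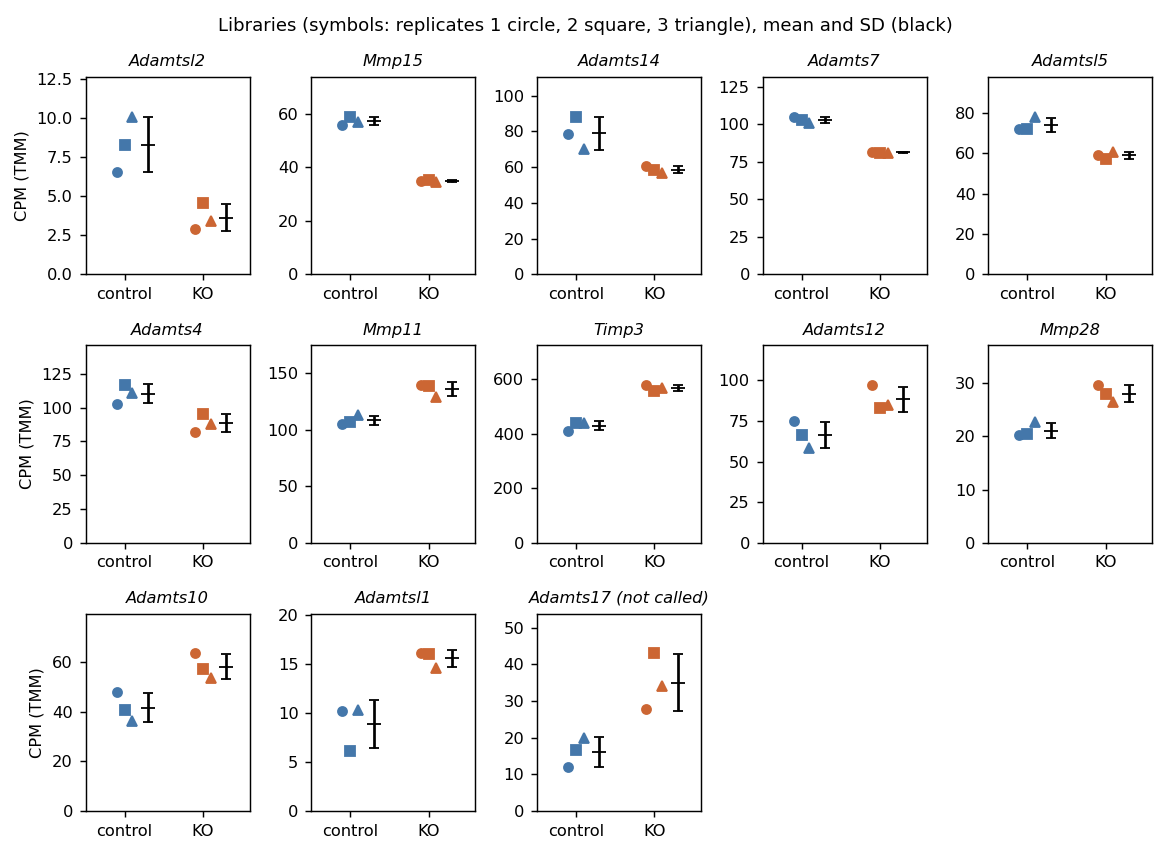
CPM (y axis, from 0) in the 3 control and 3 *Phf2* KO libraries for the 12 genes past the threshold and for *Adamts17*, with the mean and SD in black. In each of the 13 panels the KO libraries lie on the same side of all control libraries.

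The ADAMTS genes past the threshold went both ways, with 3 lower, 2 higher and 8 not past the threshold among the 13 tested. Of the procollagen N-proteinases, which remove the amino-terminal propeptide of fibrillar procollagens, *Adamts14* fell and *Adamts2* did not pass. *Adamts14* (ENSMUSG00000059901, chromosome 10, 61197112 to 61273438, minus strand) had 78.7, 88.3 and 70.0 CPM in control and 60.6, 58.5 and 57.0 CPM in KO replicates. The control libraries varied more than the KO libraries, yet all lay above them, and the log2 fold change was -0.43 ± 0.07 (SE; adjusted p = 0.00402). *Adamts2*, the more abundant of the pair, had 266 ± 16.6 CPM (SD, n = 3) in control and 274 ± 14.0 CPM (SD, n = 3) in KO cells, with a log2 fold change of 0.04 (95% interval -0.07 to 0.16, adjusted p = 0.742). *Adamts3* had at most 11 counts in any library.

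Of the proteoglycan-cleaving ADAMTS genes, *Adamts4* fell and the more abundant *Adamts1* and *Adamts5* did not pass. *Adamts4* (ENSMUSG00000006403, chromosome 1, 171250421 to 171260637, plus strand), an aggrecanase gene, had 103, 117 and 111 CPM in control and 82.2, 95.6 and 87.9 CPM in KO replicates. Its log2 fold change was -0.32 ± 0.06 (SE; adjusted p = 0.00758), and the groups did not overlap. It was not past the threshold without control replicate 2 (adjusted p = 0.0592) or when *Phf2* KO replicate 3 was left out (0.0530), with a range of 1.13e-04 to 0.143 over all alternatives. *Adamts1* had 197 ± 19.2 and 193 ± 5.71 CPM (SD, n = 3 each) in control and KO cells, a log2 fold change of -0.03 that turned to 0.05 without control replicate 3. *Adamts5*, the other main aggrecanase gene, had 348 ± 35.1 CPM (SD, n = 3) in control and 379 ± 11.7 CPM (SD, n = 3) in KO cells, with overlapping groups and an adjusted p of 0.301. Without control replicate 3, which was its highest control, the log2 fold change of *Adamts5* went from 0.13 to 0.21 and the adjusted p was 0.0288 (0.0288 to 0.712 over all alternatives). *Adamts9* and *Adamts15* passed the filter with means under 1 CPM and did not pass the threshold, and *Adamts8* and *Adamts20* did not pass the filter.

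*Adamts7* and *Adamts12* encode closely related proteases that both cleave cartilage oligomeric matrix protein, and they moved in opposite directions. *Adamts7* (ENSMUSG00000032363, chromosome 9, 90163069 to 90208071, plus strand) had 105, 103 and 101 CPM in control and 81.5, 80.9 and 81.0 CPM in *Phf2* KO replicates. The replicates lay close together within each group, and the log2 fold change was -0.35 ± 0.04 (SE; adjusted p = 2.91e-04). *Adamts12* (ENSMUSG00000047497, chromosome 15, 11064790 to 11349231, plus strand) had 74.8, 66.2 and 58.3 CPM in control and 97.3, 83.1 and 85.0 CPM in KO replicates, a log2 fold change of 0.41 ± 0.10 (SE; adjusted p = 0.0393). All KO values were above all control values, but 4 fits without a library lost the call: without control replicate 2 (adjusted p = 0.150), *Phf2* KO replicate 1 (0.0904), *Phf2* KO replicate 2 (0.0629) and *Phf2* KO replicate 3 (0.144). Without the filter on low counts it was 0.0800, and over all alternatives it ran from 4.65e-05 to 0.150. Their known substrate gene *Comp* was at 0.703 CPM in control and 0.550 CPM in KO cells.

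*Adamts10*, *Adamts17* and *Adamts6* belong to the ADAMTS genes linked to fibrillin microfibrils. *Adamts10* (ENSMUSG00000024299, chromosome 17, 33524204 to 33553782, plus strand) had 47.9, 40.7 and 36.4 CPM in control and 63.7, 57.1 and 53.7 CPM in KO replicates. The groups did not overlap, and the log2 fold change was 0.48 ± 0.10 (SE; adjusted p = 0.0210). The call was lost without control replicate 2 (adjusted p = 0.114), *Phf2* KO replicate 1 (0.0502) and *Phf2* KO replicate 2 (0.0759), and without the filter on low counts (0.0854), in a range of 1.85e-05 to 0.145. *Adamts17* (ENSMUSG00000058145, chromosome 7, 66839735 to 67153171, plus strand) had the largest increase by estimate, at 11.9, 16.6 and 20.0 CPM in control and 27.8, 43.1 and 34.2 CPM in KO replicates. Its KO libraries were all above its control libraries, but they varied, and the log2 fold change of 1.11 (95% interval 0.44 to 1.79) did not pass the threshold in the quasi-likelihood test (adjusted p = 0.0933). With the replicate number as a block, *Adamts17* passed with an adjusted p of 2.88e-04. It also passed with exactTest (1.80e-06), DESeq2 (0.00128) and limma-voom (0.00892), and not without 1 library or in the TPM fits, where the largest value was 0.268. *Adamts6*, the closest relative of *Adamts10*, had a log2 fold change of -0.22 (95% interval -0.46 to 0.02) and overlapping groups.

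All 5 ADAMTS-like genes were tested. *Adamtsl2* (ENSMUSG00000036040, chromosome 2, 27079379 to 27108981, plus strand), whose product binds fibrillin and latent TGF-beta binding protein, showed the largest decrease among the genes past the threshold. Its level was 6.56, 8.26 and 10.1 CPM in control and 2.89, 4.59 and 3.41 CPM in KO replicates. The highest KO library was below the lowest control library, and the mean was 2.29-fold lower, with a log2 fold change of -1.20 ± 0.20 (SE; adjusted p = 0.00303). *Adamtsl5* (ENSMUSG00000043822, chromosome 10, 80339110 to 80348412, minus strand), also known to bind fibrillin, had 72.2, 72.1 and 78.1 CPM in control and 59.1, 57.1 and 60.7 CPM in KO replicates, a log2 fold change of -0.33 ± 0.05 (SE; adjusted p = 0.00185). Its TPM overlapped, at 41.4, 45.2 and 52.2 in control and 38.0, 33.3 and 47.8 in KO replicates. In the limma fits of TPM, *Adamtsl5* had a log2 fold change of -0.23. It did not pass there (adjusted p = 0.526 with 1 added and 0.522 with 0.1 added). *Adamtsl1* (ENSMUSG00000066113, chromosome 4, 85514172 to 86428385, plus strand) went the other way, from 10.2, 6.08 and 10.3 CPM to 16.1, 16.0 and 14.6 CPM. Its log2 fold change was 0.81 ± 0.18 (SE; adjusted p = 0.0232), and it was not past the threshold without *Phf2* KO replicate 1 (0.0804), replicate 2 (0.0951) or replicate 3 (0.0760), in a range of 7.38e-05 to 0.303 over all alternatives. Per transcript length the groups of *Adamtsl1* overlapped, with 1.17, 0.600 and 3.23 TPM in control and 5.01, 3.23 and 3.16 TPM in KO replicates. *Adamtsl3*, at 101 ± 10.6 and 105 ± 0.783 CPM (SD, n = 3 each), did not pass. *Adamtsl4*, another fibrillin-binding protein gene, had 28.3 ± 3.75 CPM (SD, n = 3) in control and 33.7 ± 0.704 CPM (SD, n = 3) in KO cells, and its adjusted p of 0.112 became 0.0384 without control replicate 3 (0.0384 to 0.384 over all alternatives).

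The *Mmp* genes of the collagenase and stromelysin cluster were hardly expressed. This cluster holds 10 of the genes within 427 kb of chromosome 9, from 7272514 to 7699585. Of these, 6 had no count in any library (*Mmp12*, *Mmp1b*, *Mmp1a*, *Mmp10*, *Mmp20* and *Mmp7*), and *Mmp8* and *Mmp27* had at most 12 and 2 counts. In these libraries, 3 estimated counts stand for 0.0444 to 0.0571 CPM. The study's reads were longer than the 75 bases per count, so these values are no upper limit for a library at 0. *Mmp10* and *Mmp7*, with no count in any library, had 0.0377 and 0.0901 TPM in control replicate 2. *Mmp3* (stromelysin-1) had 1.39, 1.36 and 0.893 CPM in control and 1.04, 0.152 and 1.15 CPM in KO replicates, with an adjusted p of 0.635. *Mmp13*, the main collagenase gene of rodents, had 0.649, 0.326 and 0 CPM in control and 0.244, 0.0762 and 0.0591 CPM in KO replicates. With so few counts the log2 fold change of -1.34 had a 95% interval from -3.70 to 1.01, and a difference was not detectable at this depth. The letters TGANTCA, on either strand, stood in the promoters of 8 of the 10 cluster genes and in no other family promoter. They take in TGACTCA and TGAGTCA, bound by the AP-1 factors FOS and JUN, and also the TGAATCA of *Mmp20*. Over all promoters the share with TGANTCA was 7.81%. The 31 bases around each match are shown in the order of the genes on the chromosome, with TGANTCA in capitals, because these 8 genes share the letters and were at or near 0.
*Mmp13*: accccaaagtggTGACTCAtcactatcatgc
*Mmp12*: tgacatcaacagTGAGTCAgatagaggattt
*Mmp1b*: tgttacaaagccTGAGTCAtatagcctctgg
*Mmp3*: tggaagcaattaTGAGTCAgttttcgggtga
*Mmp1a*: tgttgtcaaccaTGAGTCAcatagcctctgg
*Mmp10*: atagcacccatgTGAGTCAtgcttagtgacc
*Mmp20*: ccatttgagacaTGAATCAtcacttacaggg
*Mmp7*: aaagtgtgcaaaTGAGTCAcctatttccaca
The match began 35 to 95 bases before the start in each of the 8 genes. The windows lie at chr9:7272467-7272497 (*Mmp13*), chr9:7347318-7347348 (*Mmp12*), chr9:7388101-7388131 (*Mmp1b*, minus strand), chr9:7445764-7445794 (*Mmp3*), chr9:7464056-7464086 (*Mmp1a*), chr9:7502267-7502297 (*Mmp10*), chr9:7628124-7628154 (*Mmp20*) and chr9:7692015-7692045 (*Mmp7*). None of the 8 genes past the threshold with a promoter entry held these letters.

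Outside the cluster, the genes below the filter on low counts were *Mmp17*, *Mmp21*, *Mmp24*, *Mmp25*, *Timp4*, *Adamts3*, *Adamts8*, *Adamts13*, *Adamts18*, *Adamts19* and *Adamts20*. Over all 19 genes that did not pass it, 7 had no count in any library, the other 12 had at most 16, and the highest mean was 0.133 TPM.

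The partners of these proteases were counted from 8 lists of activators, inhibitors, other matrix proteases and substrates. Of 61 genes tested, 12 passed the threshold (19.7%), 8 higher and 4 lower, with a median log2 fold change of -0.02. Over all genes tested, 6.48% passed, 3.22% higher and 3.26% lower, and 9.39% of those with a mean of 5 CPM or more did. Leaving out a library lowered this number to between 3 and 10: it was 6 without control replicate 1, 3 without control replicate 2, 3 with *Phf2* KO replicate 2 left out and 5 with *Phf2* KO replicate 3 left out. The plasminogen system, which activates several MMP precursors, had 1 higher and 1 lower of 9 tested. *Plau*, the urokinase gene, fell from 67.2, 70.7 and 74.8 CPM in control to 52.1, 54.9 and 57.0 CPM in KO replicates (log2 fold change -0.37 ± 0.06 SE, adjusted p = 0.00132). *S100a10*, a plasminogen receptor subunit, rose by a log2 fold change of 0.19 (adjusted p = 0.0258). None of the 6 proprotein convertases tested passed, *Furin* among them with 155 and 163 CPM.

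The list of fibrillin microfibril genes and the fibronectin gene *Fn1* had 4 higher and none lower of 10 tested past the threshold. Over all genes, 3.22% were higher and 3.26% lower. Of the 4, *Mfap2* lost its call in all 6 fits without a library, *Mfap4* in 4 of them and *Ltbp3* in 1. They were *Ltbp1* and *Ltbp3*, which encode latent TGF-beta binding proteins, and *Mfap2* and *Mfap4*, which encode microfibril-associated proteins. *Ltbp1* had 148, 146 and 162 CPM in control and 179, 182 and 186 CPM in KO replicates (log2 fold change 0.26, adjusted p = 0.00525). *Ltbp3* had 706 ± 28.2 CPM (SD, n = 3) in control and 830.3 ± 52.5 CPM (SD, n = 3) in KO cells (log2 fold change 0.23, adjusted p = 0.00982), and was at 0.0597 without control replicate 2. *Mfap4* was rare, with 1.11 ± 0.417 and 2.63 ± 0.163 CPM (SD, n = 3 each; log2 fold change 1.24, adjusted p = 0.0173), and *Mfap2* was nearest to the threshold (log2 fold change 0.64, adjusted p = 0.0492). *Fbn1*, the fibrillin-1 gene itself, had 1219.5 CPM in control and 1338 CPM in KO cells and did not pass (adjusted p = 0.103). *Fn1* had 12776 CPM in control and 11352 CPM in KO cells, with all KO libraries below all control libraries. Its log2 fold change of -0.17 did not pass (quasi-likelihood adjusted p = 0.0653). By estimate, 7 of the 10 genes were higher and 3 lower.

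Of the ADAM genes listed, 2 of 10 tested were higher past the threshold, *Adam10* (log2 fold change 0.19, adjusted p = 0.0250) and *Adam22* (0.76, adjusted p = 0.0284). Per transcript length the groups of *Adam22* overlapped, with means of 0.450 TPM in control and 0.528 TPM in KO libraries. Its adjusted p ran from 0.00916 to 0.831 over all alternatives. Of the tolloids, meprins and procollagen enhancers, *Mep1a* was higher (0.90, adjusted p = 0.0118) and *Tll1* lower (-1.02, adjusted p = 0.0319) of 5 tested. *Lrp1*, the endocytic receptor that clears MMP, ADAMTS and TIMP proteins, was 1 lower of 9 other regulators (-0.13, adjusted p = 0.0415), and *Cst6* was 1 lower of 9 cathepsins and cystatins (-0.64, adjusted p = 0.0485). The list of lecticans, link proteins and *Comp* had 3 genes tested, and none passed. *Vcan*, the versican gene, had 832 and 911 CPM (adjusted p = 0.200). Of the 12 genes of these lists, *Plau* and *Ltbp1* were past the threshold in all 6 fits without a library. The largest adjusted p in those fits was 0.134 for *Adam10* (without control replicate 1; lost in 5 fits, all but *Phf2* KO replicate 1), 0.156 for *Adam22* (without *Phf2* KO replicate 2; lost in 4, all but *Phf2* KO replicates 1 and 3) and 0.167 for *S100a10* (without control replicate 2; lost in 5, all but control replicate 3). It was 0.0657 for *Mep1a* (without *Phf2* KO replicate 2; also lost without control replicate 2), 0.189 for *Tll1* (without control replicate 2; lost in 5, all but control replicate 3) and 0.216 for *Lrp1* (without *Phf2* KO replicate 2; lost in 4, all but control replicate 3 and *Phf2* KO replicate 1). For *Cst6* it was 0.239 (without control replicate 2; lost in 5, all but control replicate 1), for *Mfap4* 0.0782 (without *Phf2* KO replicate 3; lost in 4, all but control replicate 2 and *Phf2* KO replicate 1) and for *Mfap2* 0.181 (without *Phf2* KO replicate 2; lost in all 6).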

How the data were processed

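The authors aligned paired-end reads to mm10 with HISAT2 and derived gene counts with StringTie, per the labels and the study's methods; versions and annotation are not given in the sources used here. The deposited matrix holds estimated counts, whole numbers not scaled by library size. For genes with 1 transcript and at least 500 counts, coverage times length per count had a median of 74.984 to 74.988, so the counts follow a read length of 75 and are not tallies of reads. The authors' TPM, a signal per transcript length, was taken from the reference gene rows of the deposited per-library tables, which list the same reads again under assembled loci. Coordinates are those of these tables (mm10) and equal GENCODE M21 for all 51 genes.

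The counts were fitted with edgeR 4.0.16 under R 4.3.3: filterByExpr (minimum count 10), TMM, the robust quasi-likelihood test with the group as the factor, a prior count of 0.125, Benjamini-Hochberg adjustment over 17310 genes and a threshold of 0.05 (two-sided). Alternatives were exactTest (the test of the study), DESeq2 1.42.0, limma-voom and limma on log2(TPM + 1) or log2(TPM + 0.1) (limma 3.58.1), other scalings and filters, counts divided by 2 and 4, the replicate number as a block, stricter thresholds, and leaving out each library. With exactTest, 1127 genes passed here, more than the study reported with that test at the same threshold. The cause of that difference was not tested. The procedure was tested on simulated data. Deviations of same-numbered libraries correlated by 0.171 to 0.364 across 10923 genes (at most 0.113 for different numbers). The study describes no pairing, and whether the numbers mark one was not tested. Genes named are *Phf2*, every member past the threshold, all *Timp* genes, the 3 most abundant members of each other family, the 5 largest changes, the 3 members nearest above the threshold and up to 4 genes past it per partner list; other members, markers and overlapping genes are given with their groups. The members, lists and tests were chosen with earlier results of these data known. Figures were drawn with matplotlib 3.10.9 under Python 3.11.15.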

Additional observations from a re-analysis of the deposited data

How the results depend on the processing

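The number of genes of the families past the threshold was 12, and 10 to 13 in the other fits of the counts of all 6 libraries, 13 (7 higher, 6 lower) where replicate numbers entered as a block. It was 3 with limma on log2(TPM + 1), 3 on log2(TPM + 0.1), 3 at a fold change of at least 1.5, 9 at an adjusted p under 0.01, and 9 to 14 without 1 library. Over all genes, 1122 became 158 and 178 in the TPM fits, 472 at an adjusted p under 0.01, 229 at a fold change of at least 1.5, 1316 with the block and 468 to 1039 without 1 library. The partner genes, 12 in number, became 7 with limma-voom, 1 and 1 in the TPM fits, 3 at an adjusted p under 0.01, 6 at a fold change of at least 1.5 and 3 to 10 without 1 library. The cause of these differences was not tested. *Phf2* passed in every fit. Beside *Adamts17*, the block changed the call of *Cst6* (adjusted p = 0.0565) and of no other gene named by the rule. The direction turned for *Timp2* without control replicate 1 (log2 fold changes from -0.00 to 0.07 without 1 library) and for *Adamts1* without control replicate 3 (from -0.08 to 0.05). Genes of the families under 1 CPM have intervals too wide to show changes of the size seen in the others.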

Other observations

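*Adamts16* gave different pictures on the scales used. Its counts overlapped, with 10.6 to 14.0 CPM in control and 13.3 to 13.9 CPM in *Phf2* KO libraries (edgeR quasi-likelihood fit, adjusted p = 0.434). Its TPM did not, with at most 5.08 in the control and at least 5.34 in the *Phf2* KO libraries. *Mmp16*, a membrane-type MMP gene, had a CPM of 35.7 to 43.3 over all libraries, while its TPM ran from 7.36 to 15.0 within the *Phf2* KO group. These genes have 4 and 6 annotated transcripts, and *Adamtsl1*, whose TPM also overlapped, has 12. *Adamts16* and *Mmp16* were picked out after their values were seen.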
